A study of Mus musculus with 9 samples.

Results

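The baseline transcriptome described here is that of primary osteoblasts from the skull roof (calvaria) of newborn mice that received vehicle only. It rests on the 2 arrays labelled as vehicle-treated, of 9 arrays in all. Genes were ranked by their mean bead signal on these 2 arrays. A gene was called on where at least 1 of its probes had a detection p-value under 0.05 on both, and off otherwise. By this rule 8261 of 17914 genes measured were on (46.1%) and 9653 were off.

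All cells of the study, vehicle-treated ones included, had been transduced with a lentiviral construct from which doxycycline (dox) induces RUNX2, the transcription factor that directs osteoblast formation. They were grown in phenol red-free medium with 20% charcoal-stripped serum, which is poor in steroid hormones, and treated for 48 h. The other groups were dox at 500 ng/ml with oestradiol (E2) at 10 nM (n = 2), E2 alone (n = 3) and dox alone (n = 2), against vehicle (n = 2). Dox and vehicle shared the first slide, and the arrays of both groups with E2 the second, so slide and E2 cannot be told apart. Neither the sex of the pups, nor how many were pooled, nor whether replicates came from separate cultures is stated in the labels, so the spread between replicates may be technical. Culture from whole calvaria can carry over other cells, and in such bulk samples fewer cells of a type and less RNA per cell cannot be told apart.

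Osteoblasts build bone by secreting a matrix made mostly of type I collagen and then mineralising it. In the calvaria they form bone directly within mesenchyme, without the cartilage model that precedes most of the skeleton. As they mature they are known to pass from proliferating precursors that lay down collagen, through a stage marked by alkaline phosphatase, to a mineralising stage marked by bone sialoprotein and osteocalcin, and some become osteocytes inside the bone. They also govern osteoclasts, the bone-resorbing cells, through the growth factor M-CSF, the ligand RANKL and its soluble decoy osteoprotegerin.

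Signals are on the linear scale of the scanner, in arbitrary units and without background subtraction, and pairs of signals are those of replicates 1 and 2. A rank orders probe signals and not transcript numbers, since probes differ in how well they bind. Genes called off are those that no single probe read on both arrays. Some genes that most growing cells use were among these, such as Pcna, the sliding clamp of DNA replication, Pgk1, a glycolytic kinase, and the ribosomal protein genes Rpl6, Rpl14, Rpl17, Rplp2 and Rps23. The 2 vehicle arrays had 11633 and 11671 probes above background, within the range of 11554 to 12206 over the 9 arrays. The lowest signals called detected were 161.8 and 150.1, and array medians were 149.9 and 139.8. Immediate early genes split the dox pair, with replicate 2 low, and the 2 vehicle arrays did not differ in this way.

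Mean signals reached 38493 and had a median of 615 over genes on (quartiles 275 and 1643) and of 120.8 over genes off. Above 1000 there were 3073 genes, above 10000 there were 234 and above 20000 there were 79. Of the summed signal above the median of genes off, the 10 brightest genes held 2.61%, the 100 brightest 19.0% and the 200 brightest 28.9%. No single gene dominated the arrays, and the mean signal at rank 40 was still 27891.

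**Figure D1:**
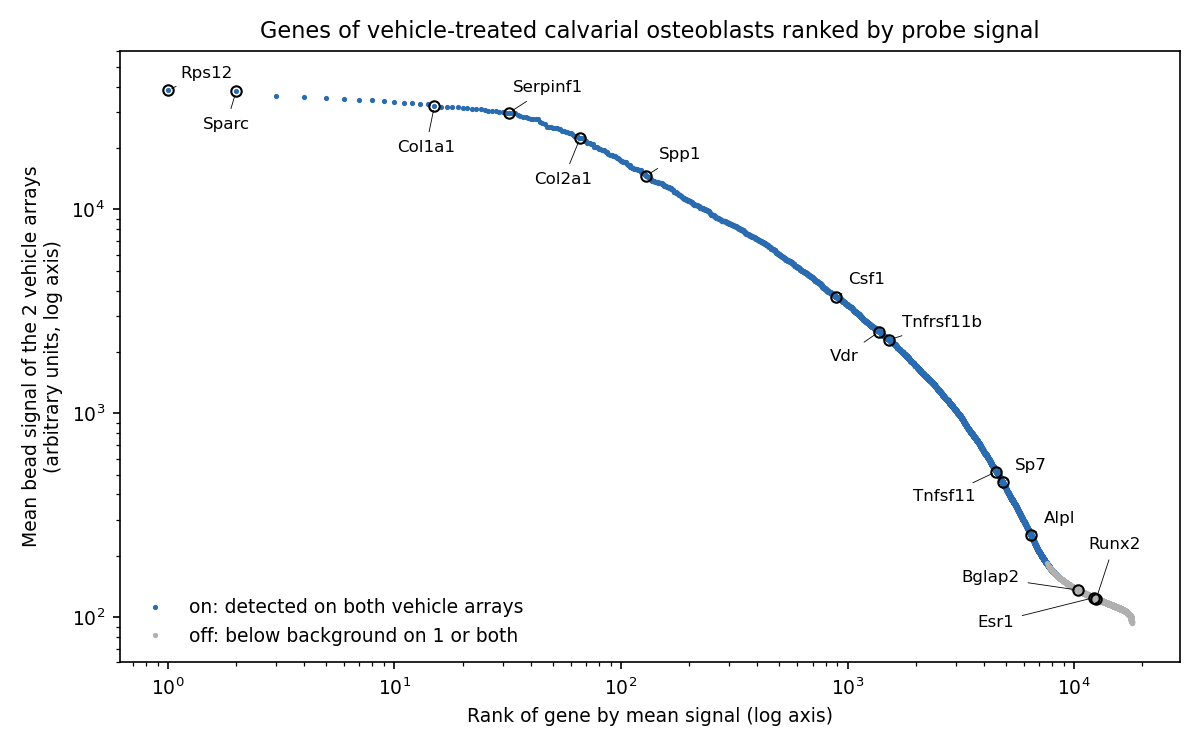
Mean bead signal of the 2 vehicle arrays (arbitrary units, log axis) against the rank of each of 17914 genes (log axis), with genes on in blue, genes off in grey and 15 genes circled. Osteoblast genes span the whole range: Sparc lies at rank 2, Alpl at rank 6450, and Bglap2 and Runx2 lie among the genes off.

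The brightest genes fell into a few classes. Ribosomal protein genes made up 16 of the 40 brightest, led by Rps12 (37945 and 39041), and 56 of the 63 measured were on. Another 6 of the 40 carried symbols of predicted genes, whose probes may read other transcripts of like sequence. The actin cytoskeleton and its partners supplied 5 of the 40. These were the calcium-binding protein gene S100a11 (33941 and 35406), smooth muscle actin Acta2 (32638 and 33062), annexin Anxa2, beta-actin Actb and the focal adhesion protein gene Zyx. Secreted proteins of bone supplied Sparc at rank 2 (38063 and 37809), which codes for the collagen-binding osteonectin, and Bgn at rank 9 (33641 and 34335), which codes for the proteoglycan biglycan. Igfbp4, which codes for a secreted binding protein of insulin-like growth factors, stood at rank 11 (33836 and 32556), Col1a1 at rank 15 (32286 and 31804) and Serpinf1, the gene of pigment epithelium-derived factor, at rank 32 (28324 and 31219). Ubiquitin Ubb and its pseudogene Ubb-ps, tubulins Tuba1b and Tubb5, ferritin Fth1, the elongation factors Eef1a1 and Eef1g and cyclophilin Ppia were the other named genes in the 40.

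Promoters of genes on and genes off differed in their content of CG, the base pair step that is methylated in mammals. RefSeq promoters of the mouse build GRCm38.p6, from 250 bases before to 50 bases after the start, matched 13448 of the genes by symbol, and the richest promoter was counted where a gene had several. At least 10 CG were found in 88.6% of the promoters of genes on, against 43.6% of those of genes off and 65.1% of all. The median number in 300 bases was 23 for genes on and 7 for genes off. The 60 bases before the start are shown for Rps12, Igfbp4, Sparc and Serpinf1 as bright genes from both ends of this range and for Ibsp, the bone sialoprotein gene, as a gene off. Capitals mark CG and, in Igfbp4, the letters TATAAA.
Rps12: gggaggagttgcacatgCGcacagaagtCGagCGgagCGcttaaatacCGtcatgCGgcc
Igfbp4: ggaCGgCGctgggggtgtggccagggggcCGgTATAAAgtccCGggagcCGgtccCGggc
Sparc: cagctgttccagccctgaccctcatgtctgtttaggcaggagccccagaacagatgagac
Serpinf1: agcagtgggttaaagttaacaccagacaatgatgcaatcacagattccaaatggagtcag
Ibsp: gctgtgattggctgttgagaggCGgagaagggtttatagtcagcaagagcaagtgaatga

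These lie at chr10:23787210-23787269 (minus strand), chr11:99041184-99041243 (plus strand), chr11:55420081-55420140 (minus strand), chr11:75422624-75422683 (minus strand) and chr5:104299227-104299286 (plus strand). Their full promoters held 29 CG in Rps12, 27 in Igfbp4, 4 in Sparc, 3 in Serpinf1 and 5 in Ibsp. High signal was thus found with few CG in these matrix genes, while 91.1% of the 146 matched genes among the 200 brightest had at least 10. The letters TATAAA were searched on the strand of the gene between 45 and 18 bases before the start. They were in at least 1 promoter of 3.02% of all matched genes, of 1.42% of genes on and of 4.49% of genes off. Among the 200 brightest genes they were in 6 of 146 (4.11%): Igfbp4, Ppia, Ckb, Vim, Fscn1 and Prdx1. A match of letters is a description and does not show that a factor binds there.

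The 5 markers taken for osteoblasts were all on. They were chosen with earlier results of these data known, so this is no test of the label. Sparc and Col1a1, above, were joined by Spp1 (14295 and 14959, rank 129), which codes for osteopontin, Csf1 (3871 and 3582), which codes for M-CSF, and Col1a2 (2945 and 2583), the second chain of type I collagen. The osteoblast transcription factor gene Sp7, or osterix, was on at 489.5 and 429. Alpl, the alkaline phosphatase gene, was on at 282 and 224, above the detection limit on both arrays and under the median of genes on. The late markers were off: osteocalcin, read by probes of Bglap, Bglap2 and Bglap3, stood at 133 and 126, 134 and 138, and 104 and 110.2. These 3 genes are near-identical and may share reads. Ibsp, at 134 and 122, was off at both of its probes.

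Both probes of Runx2 were below background on all 9 arrays. The brighter one read 104 and 113 on the dox arrays, although dox is meant to induce the construct, and 128 and 118 on the vehicle arrays, with detection p-values of 0.315 and 0.424 in vehicle. Being off at these probes therefore gives no level of Runx2 in the vehicle cells. Among 24 measured transcription factor genes of the osteoblast lineage 18 were on (75%, against 46.1% of all genes). Atf4, a stress-responsive activator of late osteoblast genes (6075 and 5761), and Cbfb, the partner subunit of RUNX proteins (5869 and 4712), were the brightest. Zic1, Prrx1, Msx1, Foxc1 and Twist1, factors of skull and limb mesenchyme, lay between 1043 and 2106. Runx1 was on at 259 and 283, while Runx3 and Dlx5 were off. Alx1 (153 and 188) counted as off through replicate 1 alone and was detected on 7 of the 9 arrays.

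Of 20 measured mineralisation genes 13 were on (65%). Beyond those named, Mgp, an inhibitor of mineralisation (16018 and 15312), and Ogn, the small proteoglycan osteoglycin (10522 and 11361), were bright. Enpp1, which makes the mineralisation inhibitor pyrophosphate (563 and 581), and Ank, which exports it (1007 and 937), were on too. The phosphatase gene Phospho1, the sphingomyelinase gene Smpd3 and the osteoblast membrane protein gene Ifitm5, all known from mineralising cells, were off. Osteocyte genes split the same way. Gja1, the gap junction protein connexin 43 (7656 and 7378), Pdpn (5956 and 6185) and Capg (2324 and 2313) were on, but Sost, Dmp1, Phex, Mepe and Fgf23 were off, at 157 or less.

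Collagen chains were on for 19 of 36 genes (52.8%). After Col1a1 came Col2a1, Col5a1 (13869 and 12654), Col6a1 (10555 and 9691) and Col16a1 (6654 and 5837). The basement membrane chains Col4a1 (5604 and 5494) and Col4a2 (6142 and 5244) were on as well. Col3a1, abundant in loose connective tissue, was on at 439 and 425. Chains of types 10, 13, 14, 15, 17 and 19 were off. Other matrix genes were on for 34 of 49 (69.4%), among them the fibulin gene Fbln2 (23288 and 21399), Ccn2, or connective tissue growth factor (21563 and 20723), Prelp (13238 and 12532), the perlecan gene Hspg2 (12613 and 11766) and the thrombospondin gene Thbs1 (10248 and 9895). Postn, the periosteal matrix gene periostin, was off at 109 and 114, and so were Eln, Vcan and Aspn.

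The machinery that folds and crosslinks collagen was on nearly throughout, with 19 of 22 genes (86.4%). The crosslinking oxidase genes Lox (21552 and 20313) and Loxl1 (12867 and 10520.4) and P4hb, the beta subunit of prolyl hydroxylase (20504 and 17909), led this list. The collagen chaperone gene Serpinh1 stood at 3417 and 3129 and the procollagen C-proteinase gene Bmp1 at 3344 and 3265. Loxl3, Loxl4 and Adamts3 were off. Matrix proteases and their inhibitors were on for 21 of 38 (55.3%), led by the inhibitors Timp2 (20910.1 and 21085) and Timp1 (16247 and 15181) and the proteases Mmp2 (21195 and 19352) and Mmp14 (13398 and 12722). Mmp13, the collagenase of mature osteoblasts and cartilage, had 1100.1 and 859.9 at 1 of 3 probes, and Mmp3 and Mmp9 were off.

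**Figure D2:**
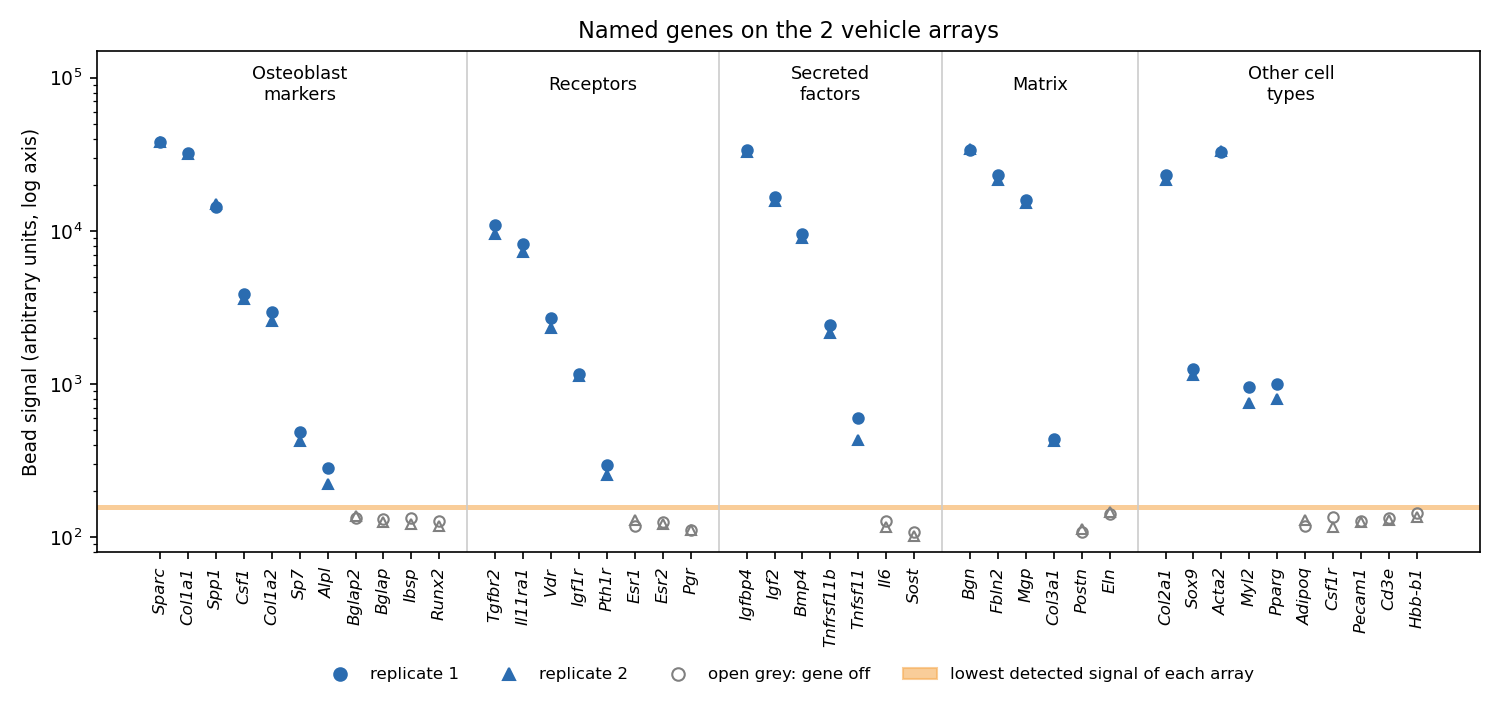
Bead signal (arbitrary units, log axis) of 42 named genes on vehicle replicates 1 (circles) and 2 (triangles), in 5 classes, with genes off in open grey and the lowest detected signals of the arrays, 161.8 and 150.1, as a band. Early matrix genes lie far above the band, Sp7 and Alpl lie closer to it, and Bglap2, Ibsp, Runx2, Esr1, Esr2 and Pgr lie under it.

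Growth factors, their binding proteins and antagonists were on for 48 of 69 genes (69.6%). The insulin-like growth factor system was prominent, with Igfbp4, Igfbp2 (17104 and 15852) and Igf2 (16689.5 and 15716) among the 200 brightest. Igf1 was on at 637 and 583, while Igfbp1 was off. Igfbp3 (167 and 147) counted as off through replicate 2 alone and was detected on 7 of the 9 arrays. Bmp4, a bone morphogenetic protein, was on at 9510.2 and 9002, whereas Bmp2 and Bmp6 were off. The activin antagonist gene Fst (5236 and 4458), the fibroblast growth factor gene Fgf7 (3939 and 3804), Pdgfa (3779 and 3577) and Vegfa (3231 and 3114) were on. Fgf2, Fgf9, Fgf18, Hgf, Pthlh and the 3 hedgehog ligand genes were off.

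Wnt ligands and their antagonists were mostly off, with 8 of 33 on (24.2%). Dkk3, a divergent member of the Dickkopf family (8701 and 8144), and the R-spondin gene Rspo3 (2106 and 1715), which codes for an amplifier of Wnt signals, were the brightest. Wnt5a stood at 718 and 694. The antagonist genes Dkk1, Dkk2, Sfrp1, Sfrp2, Sfrp4 and Frzb were off. Of these, Sfrp1 (152 and 155) missed the threshold on replicate 1 alone and was detected on 8 of the 9 arrays. Receptors of the Wnt and Notch pathways were on for 14 of 23 (60.9%), led by Ryk (9426 and 8111), an atypical Wnt receptor, with the co-receptor genes Lrp5 (263 and 265) and Lrp6 (235 and 248) near the lower quartile of genes on.

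Factors that act on osteoclasts were on for 15 of 25 genes (60%). Csf1 was the brightest, and Il34, the other ligand of the M-CSF receptor, was on at 448 and 439. Tnfsf11, which codes for RANKL, was on at 600.4 and 435, and Tnfrsf11b, which codes for osteoprotegerin, at 2439.7 and 2149.9. Those are different probes, so their signals give no ratio of ligand to decoy. Replicate 1 was above replicate 2 for both genes, by more for Tnfsf11. Sema3a, an osteoclast-restraining semaphorin (1289 and 1279.6), and Cxcl12, a chemokine of bone marrow stroma (2115 and 1756), were on. Il6, Il1a, Il1b, Tnf, Lif, Ptgs2 and Ccl2, inflammatory inducers of bone resorption, were off, at 159 or less. Il11 (213 and 200), Ccl5 (188 and 183) and Ccl7 (172 and 150) of the same list were dim and on. Over all chemokines and cytokines 12 of 43 were on (27.9%), with Mif, Spp1 and Csf1 brightest.

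Nuclear receptors were on in the same share as all genes, 18 of 39 (46.2%). Vdr, the vitamin D receptor, was on at 3 of 3 probes (2709.6 and 2324 on the brightest), and its partner Rxrb stood at 2637 and 2017. The orphan receptor gene Esrra (927 and 869.6) and Pparg (1000.3 and 798), at 1 of 3 probes, were on. Receptors of oestrogen and progesterone were off: Esr1 at both probes (119 and 130.3 on the brighter), Esr2 at 3 of 3 probes, Pgr and the membrane oestrogen receptor gene Gper1. The glucocorticoid receptor gene Nr3c1 was off at 153 and 151. The oestrogen-responsive gene Greb1 was off as well.

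Receptors for growth factors and hormones were on for 29 of 49 genes (59.2%). Axl, the receptor of Gas6 (11529 and 10467), and Tgfbr2, the TGF-beta type 2 receptor (10862 and 9588), were brightest. Pth1r, the receptor of parathyroid hormone, was dim and on at 3 of 3 probes (296 and 255 on the brightest). Ghr stood at 1462 and 1475 and Igf1r at 1166 and 1125, while Fgfr3, Bmpr2, Ptger2, Ptger4 and Met were off. Cytokine receptors were on for 16 of 35 (45.7%), with Il11ra1 (8182 and 7262), Tnfrsf12a (5782 and 4937), Osmr (2008 and 2097) and the shared subunit Il6st (2018 and 1715) at the top. Il6ra and Tnfrsf1b were off. Il1r1 (161 and 168) counted as off through replicate 1 alone and was detected on 8 of the 9 arrays.

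**Figure D3:**
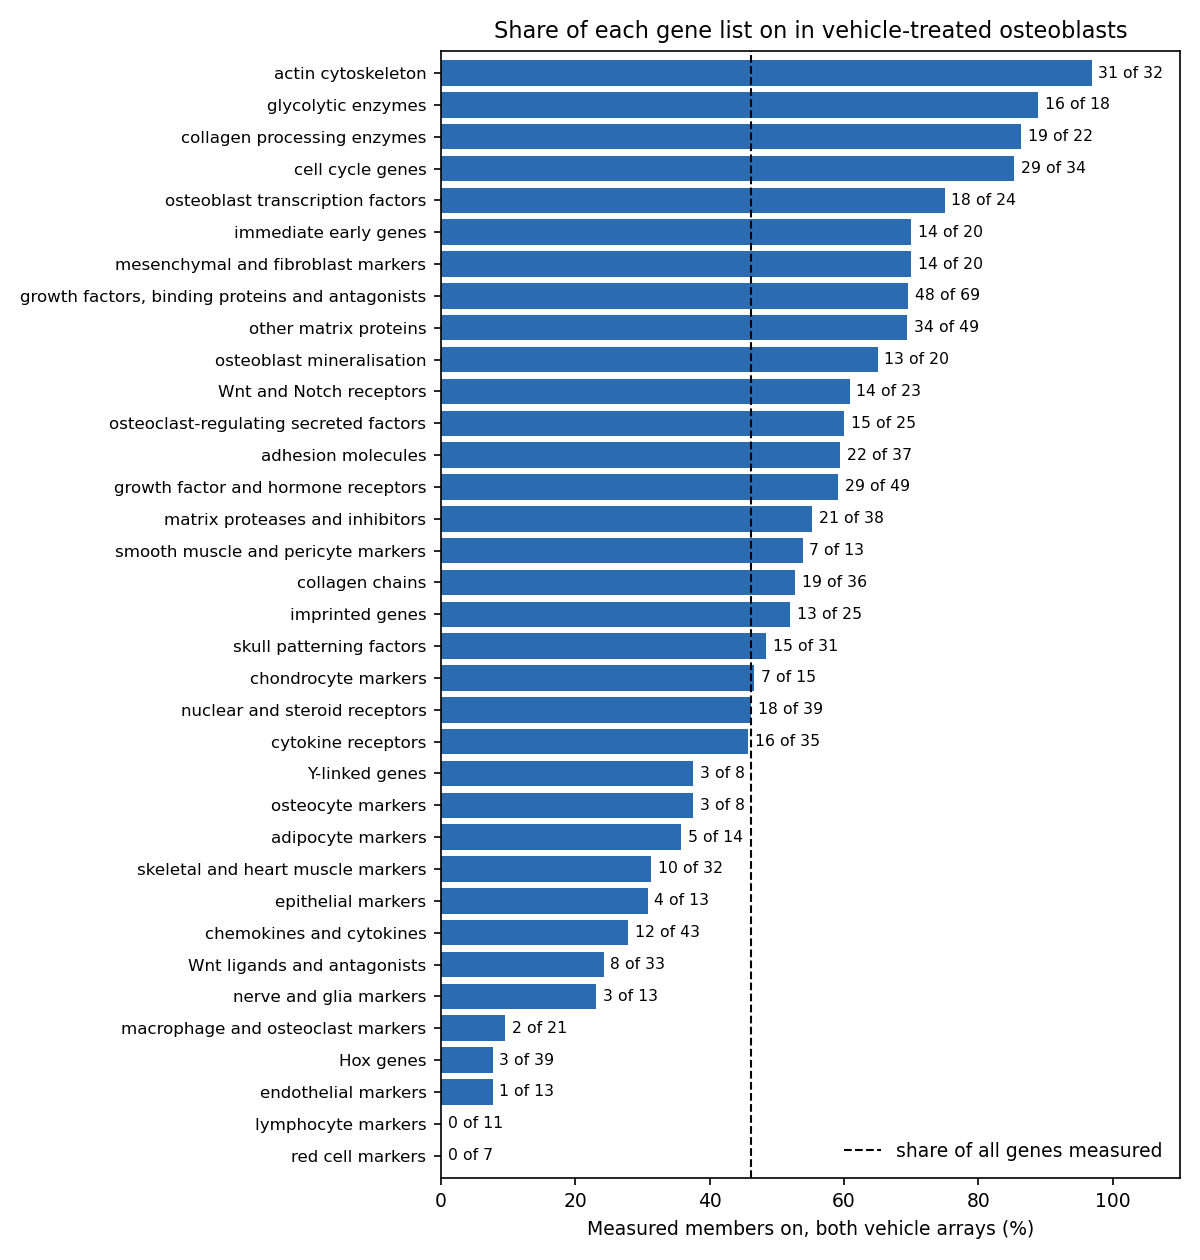
Share (%) of the measured members of each of 35 gene lists that were on in both vehicle arrays, with the numbers beside each bar and the share of all genes, 46.1%, as a dashed line. Lists of actin cytoskeleton, glycolysis and collagen processing lie furthest above that line, and those of lymphocyte, red cell and endothelial markers furthest below it, together with Hox genes.

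Markers of blood-derived and endothelial cells were nearly all off. None of 11 lymphocyte and 7 red cell markers was on, and only Egfl7 (644 and 619.8) was on among 13 endothelial markers, with Pecam1, Cdh5 and Kdr off. Macrophage and osteoclast markers were on for 2 of 21: the protease gene Ctsk (4138 and 3268), and Cd14 at 171 and 166, which was off at a detection threshold of 0.01. Ptprc, Csf1r, Adgre1, Acp5 and Tnfrsf11a, which define these cells, were off. Mesenchymal and fibroblast markers were on for 14 of 20 (70%), led by Vim, Thy1 (6294 and 5664) and Ctsk, with Ly6a next (3158 and 3227).

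Col2a1, the type II collagen of cartilage, stood at rank 66 with 23194 and 21601, and its second probe read 20327 and 16297. The cartilage regulators Sox9 (1251 and 1156) and Sox5 (1364 and 1123) were on, and 7 of 15 chondrocyte markers were on in all (46.7%). Other cartilage matrix genes were dim, with Comp at 259 and 279, Acan at 218 and 171 and Hapln1 at 164 and 159. Col9a1, Col9a3, Col10a1, Col11a2, Matn1, Matn3 and Cnmd were off. High Col2a1 signal thus stood beside dim or undetected signals of the other cartilage matrix genes of the list, and the source of the signal was not tested.

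Markers of skeletal and heart muscle were on for 10 of 32 (31.3%), a share below that of all genes. Those on included Myl2, the ventricular myosin light chain (961 and 748), Tnnc1 (638 and 496), Myl3 (575 and 469) and myoglobin Mb (390.3 and 326). Cardiac actin Actc1, at 1 of 2 probes (354 and 266), and Myh6 (218 and 216) were on too. The muscle regulators Myod1, Myog, Myf5 and Pax7, and Des and Ckm, were off. Among 13 smooth muscle and pericyte markers 7 were on: Acta2, the actin gene Actg2 (2045 and 1868) and the genes of the actin-binding proteins smoothelin, Smtn (1725 and 1642), and transgelin, Tagln (1152 and 968), were among them, but Myh11, Cnn1 and Rgs5 were off. Adipocyte markers were on for 5 of 14, with Pparg and Lpl (546 and 388) on and Adipoq, Fabp4, Plin1 and Cebpa off. Nerve and glia markers were on for 3 of 13 and epithelial markers for 4 of 13, the brightest being Ncam1 (1602 and 1360.2), Mbp (963 and 859.8) and Trp63 (269 and 255).

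Hox genes, which mark position along the body, were nearly all off. Of 39 measured, which are known to be silent in the neural crest of the face and skull, 3 were on, each with a mean under 180, and 0 were on at a detection threshold of 0.01. Of 31 patterning factors of the skull and face 15 were on (48.4%), a share near that of all genes, among them Meis2 (1720.1 and 1582) and Msx1, with En1 at 752 and 673. Xist, transcribed from the inactive X chromosome, was on at 2 of 2 probes (775 and 813 on the brighter). Alongside it 3 of 8 Y-linked genes were on (37.5%, against 46.1% of all genes). These were Ddx3y at 1 of 3 probes (975 and 867), Uty (199 and 207) and Eif2s3y (185 and 183). Kdm5d, Usp9y, Zfy1, Zfy2 and Sry were off. Of 25 imprinted genes 13 were on, and Igf2, Grb10 (16952 and 14960.2) and the noncoding RNA gene H19 (8928 and 8589) were the brightest.

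Genes of growth and energy use were on in high shares. Glycolytic enzymes were on for 16 of 18 genes (88.9%), with Gapdh (14381 and 13046) and Ldha (13706 and 13482) brightest. Cell cycle genes were on for 29 of 34 (85.3%). The G1 cyclin gene Ccnd1 (11979 and 11980.2) and the arrest factor Cdkn1a (8076 and 7093) were both bright, and mitotic genes such as Cdk1 (873 and 824), Top2a (793 and 820.1) and Ccnb1 (637 and 551) were on at moderate signals. Immediate early genes were on for 14 of 20 (70%), with Egr1 at 13279 and 13556, Dusp1 at 11380.3 and 10246 and Fos at 1204 and 1203. Egr3, Atf3 and Nr4a1 were off.

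The 2 vehicle arrays matched closely. Across the 8261 genes on, which are not independent replicates, log2 signals had Pearson's r = 0.997 and ranks had Spearman's rho = 0.995. Replicate 1 was brighter by a median ratio of 1.10, and around that ratio the log2 ratio had a SD of 0.124. Over 5 equal classes of signal that spread ran from 0.140 in the second dimmest to 0.102 in the brightest. These signals still hold the background, which compresses ratios of dim genes, and with neqc values, defined in the next paragraph, the spread was 0.295 in the dimmest class and 0.103 in the brightest. Of the 100 brightest genes of each array 95 were shared.

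A single gene, Nppa, differed by more than 1.5-fold from the median ratio of the signals as deposited, against 86 genes on neqc values, which are background-corrected and normalized on the log2 scale. Nppa codes for atrial natriuretic peptide, a heart hormone, and had 205 on replicate 1 and 448 on replicate 2. The next were Fbxl15 (290.1 and 189) and Zfp691 (308 and 389.6). On neqc values the difference between replicates had a SD of 0.191 in the vehicle pair. It was 0.228 in the dox plus E2 pair, 0.224 to 0.259 in the E2 pairs and 0.259 in the dox pair. Differences above 2-fold were found for 4 genes in the vehicle pair, against 10 to 31 in the others. All pairs were compared over the genes on in vehicle, a set chosen on the vehicle arrays, which can favour the vehicle pair. With 1 to 3 pairs per group these spreads were not tested against each other.

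**Figure D4:**
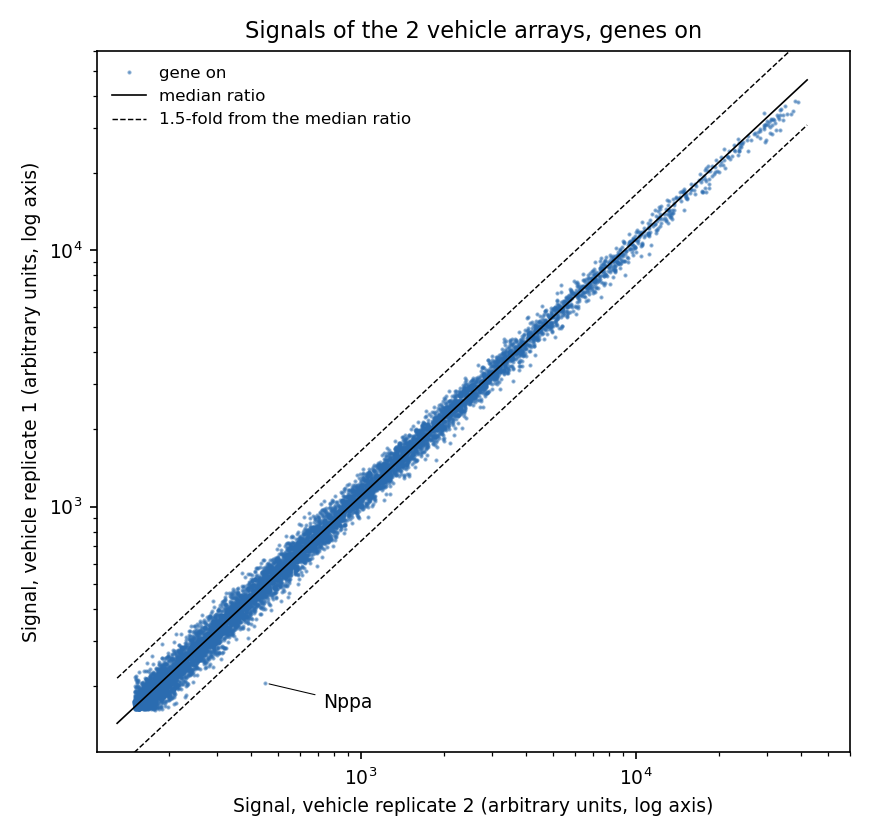
Signal of each of the 8261 genes on (points) on vehicle replicate 1 against vehicle replicate 2 (arbitrary units, log axes), with the median ratio of 1.10 as a solid line and 1.5-fold distances from it dashed. Nppa, at 205 and 448, is the 1 gene outside the dashed lines.

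The state of most genes near the threshold was less sure. The genes just inside it, such as Tmprss13 (162 and 150.4) and Ccne2 (162 and 155), had a higher detection p of 0.0489. Those just outside, such as S100pbp (162 and 166), Tubb4a (162 and 182) and Reep2 (162 and 167), had 0.0501. Detection on 1 array only was seen for 389 genes on replicate 1 and 383 on replicate 2, and 8872 genes were below background on both. In all 781 genes were detected with no probe on both arrays, a few of them by different probes on each. Of 5056 genes with several probes 1491 had all probes on, 1684 had some on and some off, and 1881 had none on.

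Most genes on in vehicle were detected in the other groups as well. Of the 8261 genes on, 7803 (94.5%) were detected on all 9 arrays, and 7715 of the genes measured were detected on no array. Only 8 genes were on in both vehicle arrays and below background on the other 7, and each had a mean signal under 180. In the other direction 4 genes were detected on the other 7 arrays and on neither vehicle array, among them Insc and Ikzf2. Both were named after their values were seen, and their vehicle signals lay within 30 units of the detection limit.

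Whether dox altered this state was asked within the first slide. With limma over 9490 genes, 3 were higher in dox than in vehicle at a Benjamini-Hochberg adjusted p under 0.05 and 0 were lower (0.0316% called), and 642 (6.77%) had an unadjusted p under 0.05. Of these, 2 were on in vehicle. Gzmd, a granzyme gene, had neqc values of 8.76 and 8.63 in dox and of 7.21 and 6.99 in vehicle (log2 change 1.59 ± 0.16 SE, adjusted p = 7.61e-06), but did not pass with its kept probes averaged (1.09, adjusted p = 0.0537). Dapk2, a kinase gene, had 7.62 and 7.85 in dox and 6.10 and 6.59 in vehicle (1.39 ± 0.19, adjusted p = 0.000988), and did not pass without vehicle replicate 1 (adjusted p = 0.0872) or with no intensity trend in the variance prior (adjusted p = 0.0751). Pacsin1, the remaining gene, was below background in vehicle and did not pass with its kept probes averaged (adjusted p = 0.631). Sp7 had 9.16 and 9.14 in dox and 8.55 and 8.48 in vehicle, and Alpl 7.91 and 7.94 against 7.42 and 7.07. Bglap2, off in vehicle (5.07 and 5.37), was detected on both dox arrays (6.36 and 6.62). The Bglap probe brightest in vehicle overlapped, at 4.67 and 5.34 in dox and 5.05 and 5.05 in vehicle. None of these passed, but Sp7 did without E2 replicate 1 (adjusted p = 0.0337).

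Among the 200 brightest vehicle genes 0 passed in dox (limma). They were chosen by the vehicle signals that also enter this comparison, and bright genes have the smallest spread. The largest change was that of Egr1, with 13.78 and 12.23 in dox and 13.71 and 13.88 in vehicle (-0.79 ± 0.24, adjusted p = 0.495), where dox replicate 2 alone was low. For Sparc the change was -0.01 (95% interval -0.14 to 0.12) and for Col1a1 -0.15 (-0.29 to -0.02, adjusted p = 0.683). For Spp1 it was 0.12 (-0.05 to 0.30). These intervals hold for normalized values only. Quantile normalization sets the highest values by rank, so a rise of Sparc could hardly show and its interval gives no bound. Its signals as deposited, which also hold differences in brightness between arrays, were 35329 and 33383 in dox and 38063 and 37809 in vehicle. Without dox replicate 1, 11 genes passed, 1 of them among the 200 brightest, and without E2 replicate 1, which enters through the shared spread, 5 passed.

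In E2 arrays 59 genes were higher (0.622% called) and 79 lower (0.832% called) than in vehicle, 1.45% in all, and 1484 (15.6%) had an unadjusted p under 0.05. Slide and E2 cannot be told apart in this comparison. Of the 200 brightest vehicle genes 6 were among them. Egr1 fell to 11.75, 11.81 and 11.70 in E2, against 13.71 and 13.88 in vehicle (log2 change -2.05 ± 0.22, adjusted p = 2.38e-06). The other 5 passed with small log2 changes: 0.32 ± 0.07 for Uqcrh, a subunit of respiratory complex III, 0.25 ± 0.06 for the predicted gene LOC100048445, -0.31 ± 0.06 for LOC100048105, -0.30 ± 0.07 for the actin-binding Marcks and -0.27 ± 0.07 for the transcription factor gene Nfix. None of these 5 passed without vehicle replicate 1 or without vehicle replicate 2 (adjusted p from 0.0836 to 0.355), nor with no detection filter. The changes of Sparc (-0.08, 95% interval -0.19 to 0.04), Spp1 (0.10, -0.06 to 0.26), Csf1 (0.03, -0.12 to 0.18) and Tnfrsf11b (0.15, -0.02 to 0.33) did not pass. For Sparc the limit set by quantile normalization, given above for dox, holds here too. Its signals as deposited were 43942, 41864 and 42267 in E2 and 38063 and 37809 in vehicle.

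The dimmer vehicle genes that fell most belonged to the muscle and immediate early lists, of which 5 of 14 and 9 of 15 tested members were lower and 0 higher. Fos had 7.27, 7.12 and 7.18 in E2, against 10.06 and 10.23 in vehicle, and Myl2 had 6.19, 6.50 and 7.65 in E2, against 9.69 and 9.47 in vehicle. Mmp13, at -0.59 ± 0.12 (adjusted p = 0.00817), and Col4a2, at -0.39 ± 0.07 (adjusted p = 0.00695), were the matrix protease and the collagen chain that passed. Mmp13 did not pass without vehicle replicate 1 (adjusted p = 0.237) or with its kept probes averaged (-0.28, adjusted p = 0.390), and Col4a2 did not without vehicle replicate 1 (adjusted p = 0.185) or 2 (adjusted p = 0.0601). Without vehicle replicate 1 or replicate 2, 20 genes passed, without E2 replicate 1 or 2 there were 59 and 65, and without dox replicate 1 or 2, which enter through the spread, 225 and 224. With no intensity trend in the variance prior 0 passed (limma, 1229 at an unadjusted p under 0.05).

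**Figure D5:**
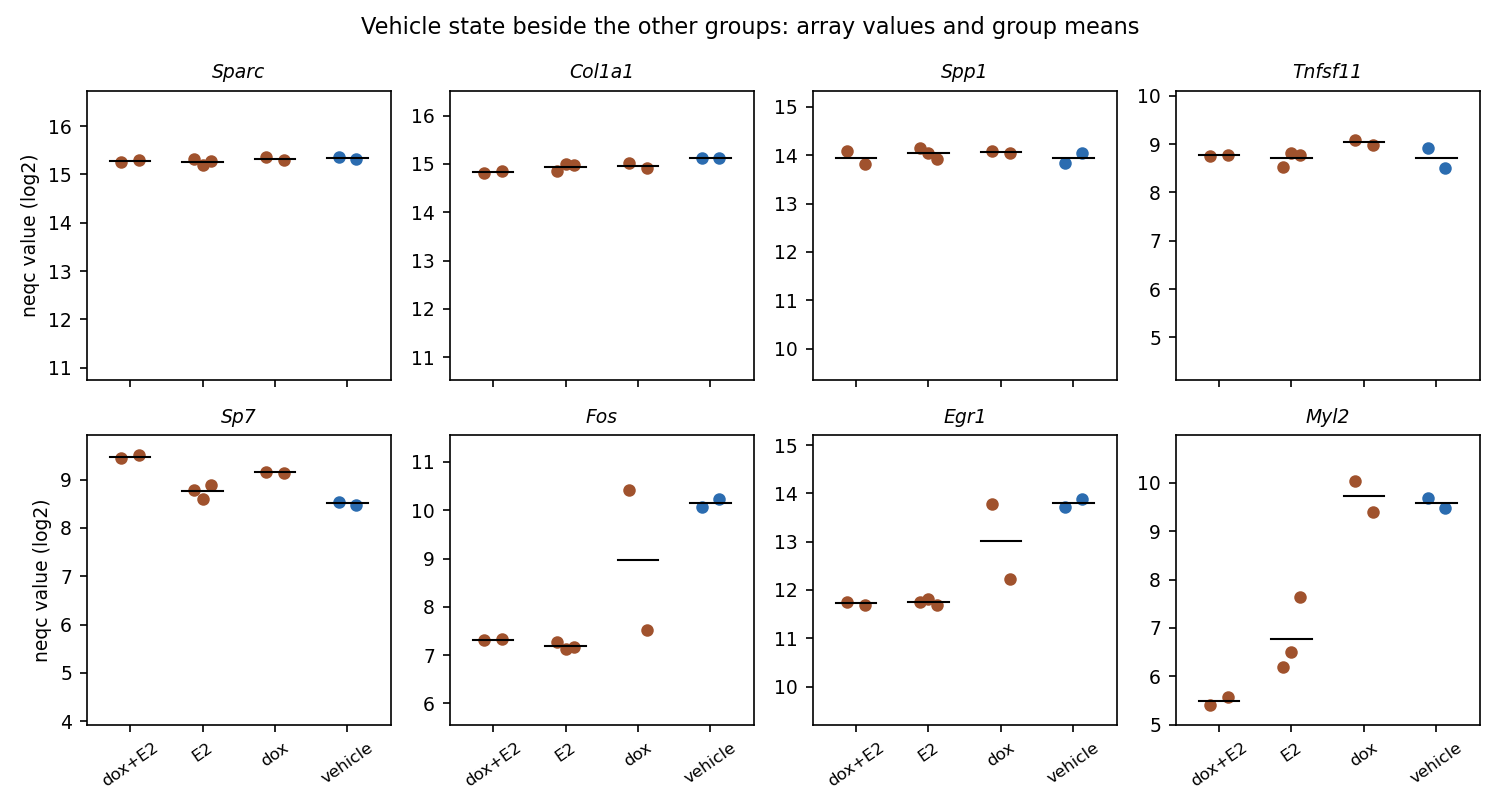
neqc values (log2) of 8 genes on each array (points) with the group means (lines), in dox plus E2, E2, dox and vehicle from left to right, on axes of equal height. Spp1 differs little between groups, and so does Sparc, whose normalized values are set by rank and could hardly differ. Fos, Egr1 and Myl2 are lower on the E2 and dox plus E2 arrays of the second slide than on the vehicle arrays. On the first slide dox replicate 2 alone is low for Fos and Egr1.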

How the data were processed

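Total RNA was extracted with Trizol, cleaned with DNase and amplified to biotinylated cRNA, which was hybridised to mouse bead arrays of Illumina, according to the labels' protocols. The deposited table gives, per the file headers, an average bead intensity for each of 25697 probes per array. The tool was GenomeStudio 2011.1, per the submitters' processing notes. It also gives a detection p-value per probe, deposited by the authors with no statement of how it was made. A second deposited table of intensity values scaled by the authors matched a quantile normalization within 0.512% and served as an alternative. No source used here gives a genome build for the probes. Array samples were grouped by their titles.

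Probe symbols were brought up to date through RefSeq genes (GRCm38.p6): 20733 probes had a current symbol, 3871 a synonym, 31 a symbol turned into a date and read from the definition, and 3 were renamed by hand, while 1059 kept theirs. A gene took the signal of its probe with the highest vehicle mean. The vehicle state was described without a test, beside the share over all genes.

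For comparisons, intensities were corrected and normalized with neqc (limma 3.58.1, R 4.3.3, offset 16). Probes detected on at least 2 arrays were kept (12912), a gene was its brightest kept probe (9490 genes), and the 9 arrays were fitted with a mean per group and an intensity trend. Tests were two-sided with Benjamini-Hochberg adjustment at 0.05, and were checked on simulated data. Precision is limited by how few arrays there are. Quantile normalization hides changes shared by most genes.

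Named genes were the 40 brightest, the cell type markers, up to 8 members on and 6 off per list, a set of genes always named, the 10 with the largest difference between the arrays and 5 on each side of the threshold. Per comparison, those past the threshold among the 200 brightest (at most 10) and up to 4 per list were added. Members and lists were chosen with earlier results of these data known. The lists of Hox, Y-linked, imprinted and skull patterning genes were added after the files were opened, as were some further list members named for being on or off. Some genes that this rule names are not reported here. Figures used matplotlib 3.10.9.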

Additional observations from a re-analysis of the deposited data

How the results depend on the processing

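The count of genes on was 7504 at a detection p under 0.01, 9042 with detection on either array and 8260 by the brightest probe alone, and 8653 to 8659 with 1 vehicle array left out. At 0.01 the markers on fell to 1 for macrophages and osteoclasts, 2 for epithelium and 0 for Hox genes. The arrays shared 95 of their 100 brightest genes as deposited, over genes on or all genes, and also as neqc values and as scaled by the authors.

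Dox minus vehicle called 1 gene with the kept probes averaged and 2 to 11 with any array left out, of which 0 to 1 among the 200 brightest. E2 minus vehicle called 68 genes with no detection filter, 91 with the mean of probes, 0 with no intensity trend (limma, 1229 at an unadjusted p under 0.05) and 69 with the replicate block. Leaving out any array gave 20 to 225. Among the 200 brightest these were 1 with no filter, 3 with the mean of probes, 0 with no trend and 1 to 9 with any array left out. The cause was not tested.

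Same-numbered dox and vehicle arrays deviated with a correlation of -0.05, and same-numbered arrays over all groups with -0.17 to 0.054. In a group of 2 arrays the deviations mirror each other, so these values cannot decide whether replicate numbers pair the samples. With the replicate block dox minus vehicle kept its 3 genes.

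None of the following changes passed the threshold, and each turned sign under some setting. With the mean of probes, dox minus vehicle was 0.022 for Sparc and -0.032 for Col2a1, and E2 minus vehicle was 0.0076 for Pth1r and 0.035 for Sparc. With the replicate block E2 minus vehicle was -0.015 for Csf1. With any array left out, dox minus vehicle ran from -0.0093 to 0.035 for Csf1, -0.058 to 0.16 for Mmp13, -0.046 to 0.025 for Sparc, -0.041 to 0.070 for Tnfrsf11b and -0.020 to 0.042 for Vdr. E2 minus vehicle ran from -0.23 to 0.12 for Alpl, -0.26 to 0.033 for Bglap2, -0.046 to 0.10 for Col1a2, -0.012 to 0.054 for Csf1, -0.31 to 0.041 for Pth1r, -0.00085 to 0.20 for Spp1 and -0.21 to 0.20 for Tnfsf11.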
